A study of Homo sapiens with 16 samples.

Results

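The transcripts of 33 genes, taken from 60606 genes in the count tables, were followed across 16 RNA-seq libraries of human kidney cancer cells. The genes were picked by symbol and comprised 13 integrin alpha subunits (ITGA1 to ITGA11, ITGAV and ITGAE), 8 integrin beta subunits (ITGB1 to ITGB8) and 12 proteins of the focal adhesion plaque (TLN1, TLN2, VCL, PXN, ILK, FERMT1, FERMT2, PTK2, ZYX, TNS1, TNS3 and PARVA). The 786-O line gave 4 groups of 3 libraries. Cells labelled SETD2 KO (genotype null) or SETD2 WT had each been kept for 72 h in 100 nM A1331852, an inhibitor of the survival protein BCL-XL, or in DMSO, its vehicle. From the A498 line came 4 untreated libraries, 2 labelled SETD2 deficient and 2 to which SETD2 had been added back (labelled add-back, genotype SETD2 WT). Both are established lines of clear cell renal carcinoma and grew in medium with 10% serum, and SETD2 encodes the enzyme that places trimethylation on lysine 36 of histone H3.

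The labels do not say whether a genotype stands for 1 clone or several, and SETD2 loss cannot be told apart from other differences between the cells compared. Total counts ran from 14172118 to 36037616 per library. The labels give 3 batches, with the 6 A1331852 libraries and both DMSO replicates numbered 3 in batch 1, DMSO replicates 1 and 2 in batch 2, and A498 in batch 3. Levels are given as CPM, the count scaled to a common library total after TMM. SETD2 averaged 43.2 ± 12.2 CPM in KO and 67.6 ± 4.16 CPM in WT cells in A1331852, and 29.3 ± 1.18 CPM in KO and 68.2 ± 2.98 CPM in WT cells in DMSO (SD, n = 3 each). In A498 it averaged 50.3 ± 12.9 CPM in the libraries labelled deficient and 49.4 ± 6.30 CPM in those labelled add-back (SD, n = 2 each), so SETD2 mRNA did not mark the labels of that line, which are used below as given. VIM led the renal carcinoma markers in every group, and the 10 of them summed to 4160 to 9600 CPM over all libraries, although CA9 was at 0 in both WT groups of 786-O. The 6 endothelial markers summed to 2.58 CPM at most.

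Integrins are receptors of 1 alpha and 1 beta subunit that bind extracellular matrix or other cells on the outside. Talins and kindlins bind the beta tail and switch the receptor on. Vinculin, paxillin, zyxin, tensins, focal adhesion kinase (PTK2) and the complex of ILK with parvin (PARVA) then tie it to actin and to signalling. In kidney tubules, integrins that bind laminin and collagen anchor the epithelium to its basement membrane. ITGB1 pairs with most alpha subunits, and the subunits ITGB3, ITGB5, ITGB6 and ITGB8 pair with ITGAV.

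The start regions of 5 integrin genes on which the results turn are shown here, with ITGA5, ITGA6 and ITGA2 higher and ITGB8 lower in KO cells under A1331852 than in DMSO, and with ITGA4 below its WT level in KO cells. Each is the 250 bases before the RefSeq start on GRCh38.p14, written 5′ to 3′ along the gene. Capitals mark matches of the GC box (GGGCGG, or CCGCCC on the other strand) and of the TATA box (TATAAA, or TTTATA on the other strand).
ITGA5 (chr12:54419267-54419516, minus strand): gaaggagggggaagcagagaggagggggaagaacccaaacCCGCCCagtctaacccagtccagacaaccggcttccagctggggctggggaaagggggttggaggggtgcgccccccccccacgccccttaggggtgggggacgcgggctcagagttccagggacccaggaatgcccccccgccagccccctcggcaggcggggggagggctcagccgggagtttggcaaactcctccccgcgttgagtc
ITGA6 (chr2:172427086-172427335, plus strand): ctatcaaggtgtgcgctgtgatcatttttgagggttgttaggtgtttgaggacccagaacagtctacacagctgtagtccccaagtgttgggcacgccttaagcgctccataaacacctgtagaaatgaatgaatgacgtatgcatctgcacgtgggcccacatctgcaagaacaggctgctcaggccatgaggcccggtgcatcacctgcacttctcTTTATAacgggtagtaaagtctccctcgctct
ITGA2 (chr5:52989102-52989351, plus strand): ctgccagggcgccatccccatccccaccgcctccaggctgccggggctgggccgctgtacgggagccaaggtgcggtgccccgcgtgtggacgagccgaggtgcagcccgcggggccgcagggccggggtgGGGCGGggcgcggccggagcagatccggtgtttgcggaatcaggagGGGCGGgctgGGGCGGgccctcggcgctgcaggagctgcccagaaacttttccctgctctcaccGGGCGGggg
ITGA4 (chr2:181457136-181457385, plus strand): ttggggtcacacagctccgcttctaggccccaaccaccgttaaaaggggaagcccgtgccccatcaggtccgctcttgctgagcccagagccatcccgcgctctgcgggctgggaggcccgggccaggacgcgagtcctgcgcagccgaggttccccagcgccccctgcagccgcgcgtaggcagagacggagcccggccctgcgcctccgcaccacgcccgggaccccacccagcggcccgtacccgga
ITGB8 (chr7:20330650-20330899, plus strand): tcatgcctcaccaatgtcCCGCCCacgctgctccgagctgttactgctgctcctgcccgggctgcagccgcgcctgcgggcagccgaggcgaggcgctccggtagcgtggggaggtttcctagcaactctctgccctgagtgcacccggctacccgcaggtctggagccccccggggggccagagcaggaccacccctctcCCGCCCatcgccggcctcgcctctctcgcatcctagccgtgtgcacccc
Of the 33 genes, 24 had an entry among 27303 RefSeq promoters. A GC box stood in 13 of the 24, against 42.3% of all promoters, and in those of ITGA5, ITGA2 and ITGB8 but not in those of ITGA6 and ITGA4. The TATA box was found in 1 of the 24, that of ITGA6, 32 bases before the start and on the other strand, against 11.1% of all promoters. Both strands were also searched for the AP-1 site (TGANTCA), found in 0 of the 24 against 6.6% of all, for the ETS site (CGGAAG), in 3 against 16.8%, and for the cyclic AMP element (TGACGTCA), in 0 against 1.77%. An ETS site can share its first letters with the end of a GC box, and a match of letters is not a binding site. The median GC content was 70.8% over the 24 and 58.0% over all promoters. For ITGA4, ITGB8 and ITGA2 the gene start in the files' annotation (GENCODE release 41) lay inside the window shown.

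Levels were compared between genes as FPKM, which is CPM per kilobase of the exon length in the files. ITGA3, which forms a laminin receptor with ITGB1, had the highest mean of the 33 transcripts in every 786-O group. It averaged 193 ± 39.8 FPKM in KO A1331852, 176 ± 75.2 in WT A1331852, 154 ± 50.2 in KO DMSO and 185 ± 65.3 in WT DMSO (SD, n = 3 each). In the DMSO libraries of batch 1, however, ITGB1 was above ITGA3, at 110 against 96.5 FPKM in KO and 150 against 110 FPKM in WT cells. The next places in the order were taken by ITGB1, ZYX and ITGB5 in KO A1331852 and by ITGB1, ITGB5 and ZYX in WT A1331852. In KO A1331852 ITGB1 (112 ± 11.4 FPKM) overlapped with ZYX (102 ± 19.8 FPKM) and ZYX with ITGB5 (74.3 to 107 FPKM), while every ITGA3 library lay above every ITGB1 library. In WT A1331852 ITGA3 overlapped with ITGB1 (156 ± 33.4 FPKM), ITGB1 with ITGB5 (107 ± 45.8 FPKM) and ITGB5 with ZYX (67.7 ± 13.5 FPKM). In A498, ZYX came first with 187 ± 0.0691 FPKM in deficient and 147 ± 18.5 in add-back libraries (SD, n = 2 each). At the low end, ITGA8 had 1 count over all 16 libraries, ITGA9 had 4 and FERMT1, the epithelial kindlin, had 6, and these 3 genes passed no filter on low counts. The group means of ITGA10, ITGA11 and ITGB7 were at most 0.293, 0.217 and 0.223 FPKM.

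The composition of the subunits was set by few genes. Within the summed FPKM of the alpha subunits, ITGA3 took 60.8 ± 3.46% in KO A1331852 against 71.1 ± 4.52% in WT A1331852, and 60.7 ± 3.80% in KO DMSO against 69.1 ± 4.43% in WT DMSO. ITGA5, which with ITGB1 forms the main fibronectin receptor, took 23.2 ± 2.36% in KO A1331852 against 11.98 ± 1.76% in WT A1331852, and 23.9 ± 2.41% in KO DMSO against 17.3 ± 1.2% in WT DMSO (SD, n = 3 each). The 3 KO libraries lay above the 3 WT libraries in the ITGA5 share under both treatments. A498 showed the other order, with an ITGA5 share of 13.2 ± 0.0274% in deficient and 22.6 ± 1.10% in add-back libraries, and an ITGA3 share of 57.1 ± 3.26% in deficient and 37.6 ± 1.07% in add-back libraries (SD, n = 2 each). Among beta subunits ITGB1 took 47.9% to 62.3% of the summed FPKM in all 6 group means. ITGB5 followed with 34.6% to 38.1% in 786-O and 18.5% to 21.6% in A498. The ITGB3 share was 14.8 ± 3.06% in deficient and 6.25 ± 0.398% in add-back A498 libraries. No test was made of these shares, and a share also moves when another subunit changes. In level, ITGA3 did not differ between KO and WT cells at an adjusted p under 0.05 (edgeR). Its log2 fold change was 0.13 ± 0.25 under A1331852 and -0.24 ± 0.25 in DMSO (adjusted p = 0.73 and 0.566, edgeR). In A498, ITGA5 averaged 194 ± 12.1 CPM in deficient and 235 ± 19.0 CPM in add-back libraries (adjusted p = 0.0803, edgeR).

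**Figure D1:**
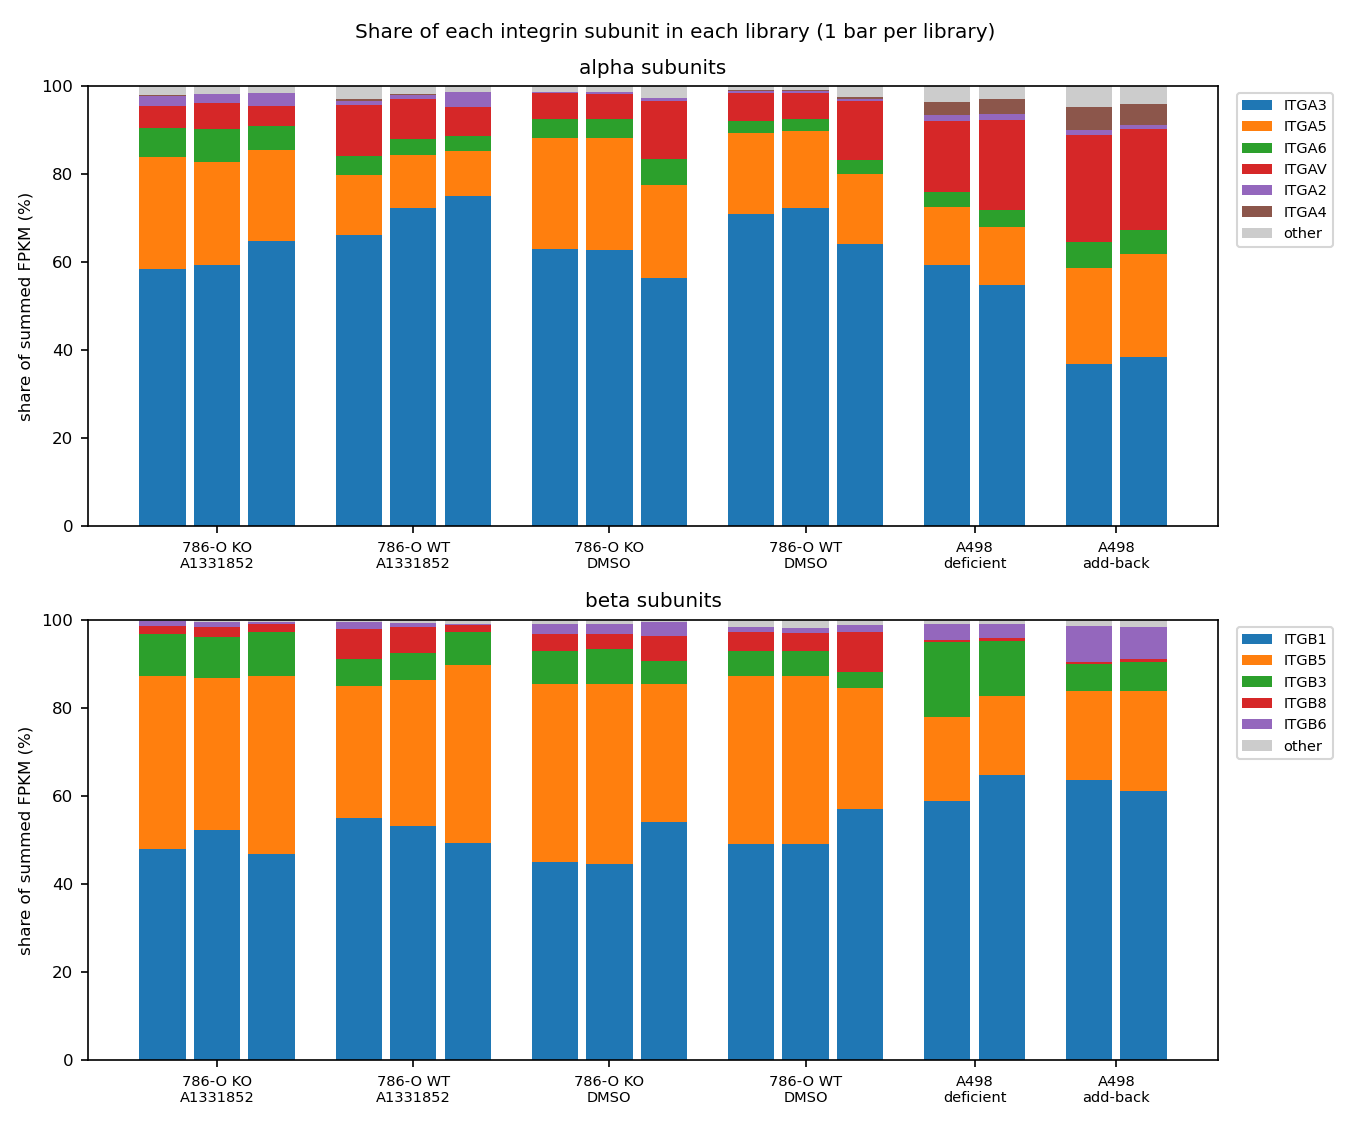
Share of each integrin subunit in the summed FPKM of the alpha (top) and beta (bottom) subunits, in percent, with 1 bar per library. ITGA3 and ITGA5 fill most of each alpha bar, and the ITGA5 share averages 23.2% in KO A1331852 against 11.98% in WT A1331852.

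The first comparison asked whether adhesion transcripts of 786-O cells differ with SETD2 genotype under A1331852. Of the 33 genes, 30 passed the filter on low counts, and 19 were called at an adjusted p under 0.05 (edgeR quasi-likelihood, Benjamini-Hochberg), 9 higher and 10 lower in KO cells. Over all 16260 genes tested, 28.2% were called, 13.2% higher and 15.0% lower. DESeq2 also called 19 of the members, and 31.8% of all genes tested. With the replicate number as a block, 21 were called (38.6% of all genes tested), which added ITGA2 (adjusted p = 0.0221, edgeR, and 7.04e-05 to 0.826 over all alternatives) and TLN1 (0.031, edgeR, and 0.0119 to 0.601). The median log2 fold change was 0.11 over the members tested and -0.01 over all genes. The fibronectin receptor subunit ITGA5 and the laminin-binding subunits ITGA6 and ITGA7 were higher in KO cells, ITGB8 and TLN2 were lower, and subunits best known from other lineages (ITGA4, ITGA10, ITGA11, ITGB2 and ITGB7) moved at low levels. These are bulk libraries, in which fewer cells of a type and less RNA per cell cannot be told apart.

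ITGA5 (chromosome 12, 54395261 to 54419266, GRCh38) had 531, 513 and 564 CPM in KO A1331852 libraries, against 163, 205 and 256 CPM in WT A1331852 libraries. The groups did not overlap. Its log2 fold change was 1.37 ± 0.15 (SE), a fold of 2.58 (adjusted p = 6.21e-05, edgeR). ITGA6 (chromosome 2, 172427354 to 172506459), a laminin-binding subunit that pairs with ITGB1 or ITGB4, had 128, 153 and 137 CPM in KO, against 47.0, 55.4 and 78.8 CPM in WT libraries. The log2 fold change of ITGA6 was 1.21 ± 0.17 (adjusted p = 0.000423, edgeR), again without overlap. ITGA7, the laminin-binding subunit best known from muscle, had 2.56, 2.60 and 4.05 CPM in KO, against 1.23, 0.541 and 0.733 CPM in WT libraries, a log2 fold change of 1.88 ± 0.36 (adjusted p = 0.00256, edgeR). These 3 calls held with each of the 6 libraries left out in turn.

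Of the 4 collagen-binding alpha subunits, ITGA10 and ITGA11, both low, were called higher in KO cells. ITGA11 had 0.639, 1.35 and 2.19 CPM in KO, against 0.112, 0 and 0.183 CPM in WT libraries, where the 3 WT libraries held 5 counts in all. Its fitted log2 fold change of 3.85 ± 0.70 (adjusted p = 0.00195, edgeR) rests on those few counts. ITGA10 had 2.82, 1.61 and 1.06 CPM in KO, against 0.670, 0.271 and 0.122 CPM in WT libraries, a log2 fold change of 2.37 ± 0.51 (adjusted p = 0.00516, edgeR). Neither gene overlapped between the groups, and both passed the filter through their KO libraries. ITGA1 and ITGA2 were not called, with log2 fold changes of 0.44 ± 0.22 for ITGA1 and 0.62 ± 0.59 for ITGA2 (adjusted p = 0.162 and 0.468, edgeR). ITGA2 stood at 91.0 CPM in WT A1331852 replicate 3, against 11.4 and 15.2 CPM in WT replicates 1 and 2 and 52.1, 45.1 and 83.6 CPM in KO libraries. Without that WT library the log2 fold change of ITGA2 was 2.17 and the adjusted p 7.04e-05 (edgeR), and that of ITGB3 0.51 with an adjusted p of 0.0123. The 7 fibroblast markers summed to 4.72 to 4.74 CPM in KO and 9.51 to 14.2 CPM in WT libraries. Among them LUM had 0.905 to 1.40 CPM in KO and 6.76 to 8.31 CPM in WT libraries. The part of these markers in the results for ITGA10 and ITGA11 was not tested.

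Subunits known from leukocytes moved both ways. ITGA4 (chromosome 2, 181457202 to 181538940), which binds VCAM1 and fibronectin with ITGB1 and the gut addressin with ITGB7, had 0.319, 0.883 and 1.46 CPM in KO, against 7.31, 7.03 and 4.40 CPM in WT libraries. Its log2 fold change was -2.85 ± 0.39 (adjusted p = 0.000306, edgeR), without overlap. ITGA4 passed the filter through the WT libraries where it is high, and its KO A1331852 libraries held 45 counts in all. ITGB2, the common beta subunit of leukocyte integrins, had 2.08, 3.43 and 3.59 CPM in KO, against 4.91, 7.44 and 8.13 CPM in WT libraries (log2 fold change -1.18 ± 0.25, adjusted p = 0.00477, edgeR). Both calls held with each library left out. ITGB7, a partner of ITGA4, went the other way, with 1.38, 1.20 and 0.399 CPM in KO, against 0.447, 0.0451 and 0 CPM in WT libraries. It passed the filter through the KO libraries where it is high. Its log2 fold change was 2.62 ± 0.74 (adjusted p = 0.0203, edgeR), but the groups overlapped, and leaving out WT A1331852 replicate 2 or either of the first 2 KO A1331852 replicates ended the call (adjusted p up to 0.0844, log2 fold change 2.10 to 5.03 over the libraries left out). The 9 other leukocyte markers summed to 162 to 163 CPM in KO and 19.4 to 34.7 CPM in WT libraries, nearly all from LCP1, which averaged 160 CPM in KO and 23.7 CPM in WT libraries. PTPRC, the pan-leukocyte marker, was at 0 in all 6 libraries. The part of LCP1 and the other markers in these results was not tested.

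Of the beta subunits that pair with ITGAV, ITGB8, which releases active TGF-beta, fell. It had 55.8, 72.3 and 73.2 CPM in KO, against 244, 247 and 98.6 CPM in WT libraries, with WT replicate 3 apart from the other WT libraries but above every KO value. The log2 fold change of ITGB8 was -1.55 ± 0.29 (adjusted p = 0.00208, edgeR) and ran from -1.87 to -1.35 with each library left out. ITGAV itself had a log2 fold change of -0.35 ± 0.12 (adjusted p = 0.0429, edgeR) and ITGB1 one of -0.48 ± 0.15 (adjusted p = 0.0325, edgeR). Neither call held on leaving out WT A1331852 replicate 2, WT replicate 3, or KO A1331852 replicate 1 or replicate 2 (adjusted p up to 0.124 and 0.105). ITGB4, the hemidesmosome partner of ITGA6, had 0.532, 1.35 and 3.25 CPM in KO, against 3.13, 7.03 and 18.5 CPM in WT libraries. The groups of ITGB4 overlapped, and its log2 fold change of -2.51 ± 0.66 (adjusted p = 0.0145, edgeR) lost its call without KO A1331852 replicate 1 or 2 (-3.32 to -1.63 over the libraries left out). ITGB3, ITGB5 and ITGB6 were not called, with log2 fold changes of 0.15 ± 0.22, -0.28 ± 0.24 and 0.02 ± 0.48.

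Among the 12 plaque genes, 3 were higher and 4 lower in KO cells. The kinase-like scaffold ILK rose by 0.83 ± 0.14, zyxin (ZYX) by 0.60 ± 0.17 and paxillin (PXN) by 0.53 ± 0.14 on the log2 scale (adjusted p = 0.0012, 0.0192 and 0.013, edgeR). TLN2, the less abundant talin, had 32.3, 41.9 and 39.3 CPM in KO, against 73.7, 67.7 and 59.5 CPM in WT libraries, a log2 fold change of -0.82 ± 0.13 (adjusted p = 0.000764, edgeR, and 0.105 without the batch term). Tensin 3 (TNS3) fell by 0.61 ± 0.13, PTK2 by 0.53 ± 0.14 and vinculin (VCL) by 0.38 ± 0.13 (adjusted p = 0.00575, 0.0146 and 0.0475, edgeR). All 7 genes had no overlap between the groups, but they were picked by their calls, so this adds no separate support. The calls of ILK, TLN2 and TNS3 held with each library left out, whereas PXN was lost without WT A1331852 replicate 2 (adjusted p = 0.0517), PTK2 and ZYX without KO A1331852 replicate 1 (0.0545 and 0.0647), and VCL without any of 5 of the 6 libraries (up to 0.137; all but KO A1331852 replicate 3). FERMT2 (kindlin-2), TNS1 and PARVA had log2 fold changes of 0.09 ± 0.14, 0.03 ± 0.22 and 0.12 ± 0.10. Without KO A1331852 replicate 1 the number of members called was 12, and in the 6 A1331852 libraries fitted alone it was 11, where 22.2% and 15.0% of all genes tested were called.

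**Figure D2:**
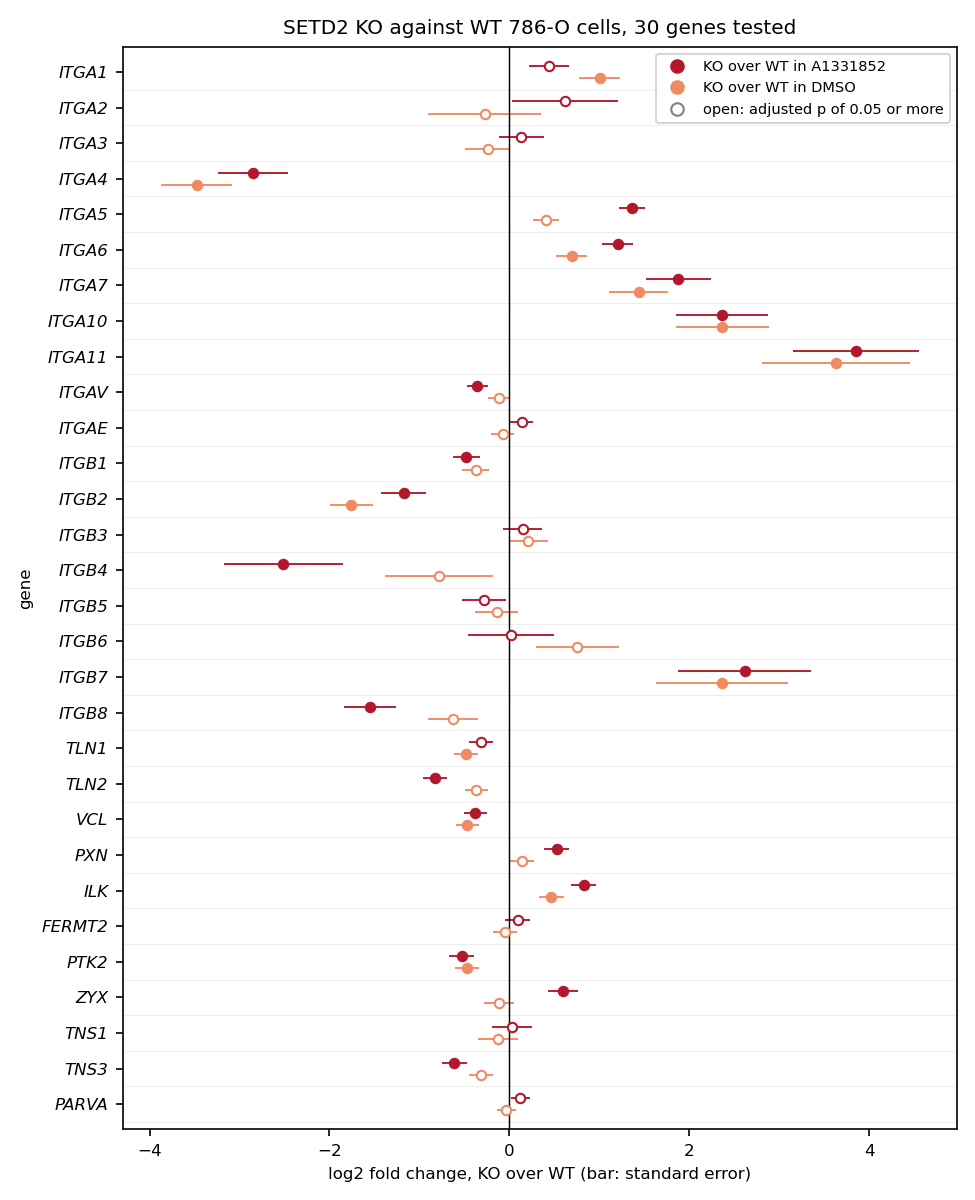
Log2 fold change of KO over WT 786-O cells with its standard error, for the 30 members tested, in A1331852 (dark) and in DMSO (light). Filled points have an adjusted p under 0.05, which 19 members reach in A1331852 and 12 in DMSO.

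In DMSO, 12 of the 30 members tested (40.0%) were called between KO and WT cells, 7 higher and 5 lower (edgeR). Of all genes tested 18.5% were called, 8.29% higher and 10.2% lower. DESeq2 called 13. With the replicate block, 16 were called (28.6% of all genes tested), which added ITGA5 (adjusted p = 0.0226, edgeR, and 4.89e-09 to 0.479 over all alternatives), ITGB1 (0.0232, and 1.41e-06 to 0.387), ITGB4 (0.0437, and 0.0187 to 0.865) and TLN2 (0.0447, and 0.000147 to 0.612). The median log2 fold change was -0.11 over the members tested and -0.02 over all genes. ITGA4 and ITGB2 fell again. ITGA4 had 0.347, 0.526 and 0.444 CPM in KO, against 4.79, 4.60 and 5.65 CPM in WT libraries, a log2 fold change of -3.48 ± 0.40 (adjusted p = 0.000154, edgeR). Its KO DMSO libraries held 38 counts in all, and it passed the filter through the WT libraries where it is high. ITGB2 had 5.63, 4.64 and 2.96 CPM in KO, against 17.7, 20.3 and 8.24 CPM in WT libraries, a log2 fold change of -1.76 ± 0.24 (adjusted p = 0.000471, edgeR). Among the 12 called in DMSO, these 2 kept their calls whichever library was left out. Leukocyte markers without the members summed to 75.6 to 150 CPM in KO and 19.0 to 78.6 CPM in WT DMSO libraries, and their part was not tested.

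The laminin-binding ITGA6 and ITGA7 and the collagen-binding ITGA1 were higher in KO cells in DMSO. So were ITGA10, ITGA11 and ITGB7, which had 10 counts at most in each WT DMSO library and passed the filter through the KO libraries where they are high. ITGA6 had 86.6, 83.1 and 68.7 CPM in KO, against 56.7, 57.8 and 35.9 CPM in WT libraries. The groups did not overlap, and the log2 fold change was 0.70 ± 0.17 (adjusted p = 0.0144, edgeR). ITGA7 had 4.07, 3.65 and 2.37 CPM in KO, against 1.03, 1.22 and 1.56 CPM in WT libraries (log2 fold change 1.44 ± 0.33, adjusted p = 0.0102, edgeR). ITGA10 had 1.42, 2.20 and 0.789 CPM in KO, against 0.311, 0.342 and 0.195 CPM in WT libraries (log2 fold change 2.37 ± 0.51, adjusted p = 0.00739, edgeR). ITGA1 had 16.8, 14.4 and 21.6 CPM in KO, against 6.41, 7.07 and 14.6 CPM in WT libraries. Its groups overlapped by the batch 1 library of WT cells, and its log2 fold change was 1.00 ± 0.22 (adjusted p = 0.0088, edgeR). ITGA11 had 48 counts in the 3 KO libraries and 3 in the 3 WT libraries, a ratio of 14.8 per count sequenced (95% exact binomial counting interval 4.76 to 74.2).

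The other calls in DMSO were ITGB7 and ILK, which were higher, and TLN1, VCL and PTK2, which were lower, with log2 fold changes of 2.37 ± 0.73, 0.47 ± 0.14, -0.48 ± 0.14, -0.47 ± 0.13 and -0.47 ± 0.14. Each of these 5 calls was lost on leaving out any 1 of the 6 libraries (highest adjusted p 0.144, 0.209, 0.188, 0.122 and 0.139, edgeR). ITGA6 lost its call when replicate 1 or 3 of either DMSO group was left out (up to 0.114), ITGA7 when WT DMSO replicate 1, WT replicate 2 or KO replicate 1 was left out (up to 0.0807), and ITGA1, ITGA10 and ITGA11 without WT DMSO replicate 1 (0.0612, 0.0543 and 0.0701). The number of members called was 2 without WT DMSO replicate 1, 5 without KO DMSO replicate 1, 6 without WT DMSO replicate 2 or 3 or without KO DMSO replicate 3, and 7 without KO DMSO replicate 2. ITGA5 had 551, 538 and 268 CPM in KO, against 411, 410 and 203 CPM in WT libraries. The ranges overlapped, but KO was above WT within both batches, by 0.45 on the log2 scale in batch 2 and 0.40 in batch 1, while the fit over 12 libraries gave 0.41 ± 0.14 (adjusted p = 0.0662, edgeR).

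Batch moved several members as much as genotype did. In DMSO, batch 2 was above batch 1 on the log2 scale by 1.43 in KO and 1.46 in WT cells for TNS1, by 1.29 and 1.19 for TLN1, by 1.24 and 1.03 for TLN2, and by 1.03 and 1.02 for ITGA5. ITGB8 went the other way, by -0.91 in KO and -1.55 in WT cells. Batch was therefore a term of the fit, and without it 5 members were called in DMSO. Within batch 2 alone, with 2 libraries per genotype, 24 members were called, and so were 55.7% of all genes tested. In their counts DMSO replicates 1 and 2 were the closest pairs of libraries, so the fit of batch 2 rests on a small spread. There, ITGA4 (-3.38), ITGB2 (-1.84), ITGA6 (0.61), ILK (0.41) and VCL (-0.49) kept the direction of the fit over 12 libraries.

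**Figure D3:**
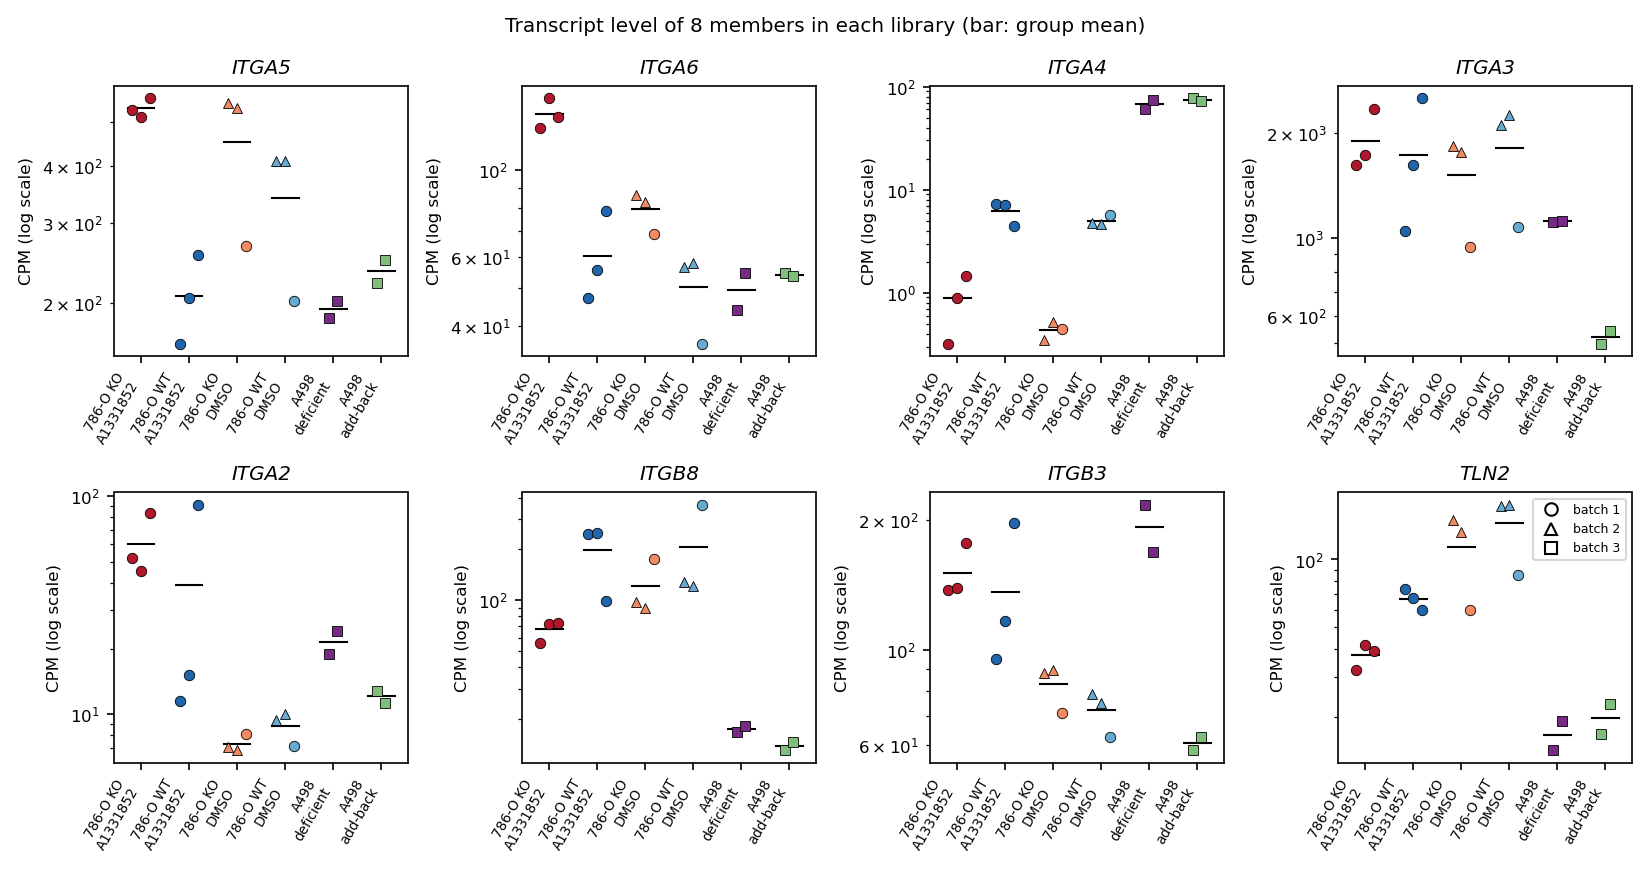
Level of 8 members in each library, in CPM on a log axis, by group. Symbols mark the batch and bars the group mean, with ITGA5 and ITGA6 higher in KO A1331852 than in WT A1331852 libraries and ITGA4 the other way, while ITGA2 in WT A1331852 spans 11.4 to 91.0 CPM.

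A1331852 against DMSO was compared within each genotype. In KO cells 8 of the 30 members tested (26.7%) were called, 5 higher and 3 lower with A1331852 (edgeR). Of all genes tested 13.5% were called, 6.46% higher and 7.08% lower. DESeq2 called 10 members, and 18.9% of all genes tested. ITGA2, a receptor for collagen and laminin, had 52.1, 45.1 and 83.6 CPM in A1331852, against 7.05, 6.84 and 8.09 CPM in DMSO. The groups lay far apart, with a log2 fold change of 3.10 ± 0.82 (adjusted p = 0.0287, edgeR). ITGB3, the beta subunit of the vitronectin receptor, had 137, 139 and 177 CPM in A1331852, against 88.3, 89.9 and 71.3 CPM in DMSO (log2 fold change 1.07 ± 0.28, adjusted p = 0.0261, edgeR). Of the exon length of ITGB3, 33.2% is shared on the same strand with another annotated gene, and fragments there went to neither gene.

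ITGA6 had 128, 153 and 137 CPM in A1331852, against 86.6, 83.1 and 68.7 CPM in DMSO, a log2 fold change of 1.13 ± 0.21 (adjusted p = 0.00666, edgeR). ITGA5 had 531, 513 and 564 CPM in A1331852, against 551, 538 and 268 CPM in DMSO. The groups of ITGA5 overlapped, and only DMSO replicate 3 shared batch 1 with the A1331852 libraries. Its log2 fold change was 0.99 ± 0.18 (adjusted p = 0.00582, edgeR) with batch as a term, 1.00 within batch 1, and not called without the batch term (adjusted p = 0.637, edgeR, and 4.75e-06 to 0.637 over all alternatives). ITGB8 had 55.8, 72.3 and 73.2 CPM in A1331852, against 96.8, 89.3 and 174 CPM in DMSO, and TLN2 had 32.3, 41.9 and 39.3 CPM in A1331852, against 149, 132 and 59.4 CPM in DMSO. Neither overlapped between the groups. The log2 fold changes were -1.62 ± 0.34 for ITGB8 and -0.74 ± 0.16 for TLN2 (adjusted p = 0.0108 and 0.0109, edgeR). PXN rose by 0.59 ± 0.17 and TNS3 fell by 0.63 ± 0.16 (adjusted p = 0.0389 and 0.0282, edgeR). The calls of ITGA6 and ITGB8 held with each library left out, but neither did in batch 1 alone, nor that of ITGB8 without the batch term (adjusted p up to 0.203 and 0.239, edgeR). In batch 1 alone 0.49% of all genes tested were called.

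Without KO DMSO replicate 3, the single KO DMSO library of batch 1, 3 members were called, and ITGA2, ITGA5, ITGB3, TLN2 and PXN lost their calls (adjusted p = 0.154, 0.0899, 0.209, 0.0577 and 0.229, edgeR). ITGA2 was also lost without KO A1331852 replicate 1 or KO DMSO replicate 1 or 2, ITGB3 without KO DMSO replicate 1 or 2, TNS3 without KO A1331852 or KO DMSO replicate 1 or 2 (up to 0.0705), and PXN without any library except KO A1331852 replicate 3. The number called was 5 without KO A1331852 replicate 1 and 4 without KO DMSO replicate 1 or 2. ITGA3 and ITGB6 did not pass the threshold in KO cells, with log2 fold changes of 1.02 ± 0.32 and -1.74 ± 0.56 (adjusted p = 0.0514 and 0.0589, edgeR, and 3.91e-07 to 0.587 and 7.94e-12 to 0.382 over all alternatives).

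In WT cells 0 of the 30 members tested were called by edgeR with A1331852 against DMSO, where 0.141% of all genes tested were called, 0.0369% higher and 0.105% lower. An unadjusted p under 0.05 (edgeR) was reached by 3 members, for which no share over all genes is given. DESeq2 called 1, ITGB3, and 2.89% of all genes tested. ITGB3 had 95.2, 117 and 197 CPM in A1331852, against 79.0, 75.1 and 62.6 CPM in DMSO. These groups did not overlap, and the log2 fold change was 1.13 ± 0.28 (adjusted p = 0.147, edgeR), close in size to the 1.07 of KO cells. ITGA2 had 11.4, 15.2 and 91.0 CPM in A1331852, against 9.42, 10.0 and 7.14 CPM in DMSO (log2 fold change 2.20 ± 0.83, adjusted p = 0.294, edgeR). Without WT A1331852 replicate 1 the adjusted p of ITGB3 was 0.0495 (edgeR), and over all alternatives it ran from 1.84e-06 to 1.0.

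The difference between the responses of KO and WT cells was tested as an interaction. It was called for 0 of the 30 members tested by edgeR, where 0.295% of all genes tested were called, 0.203% positive and 0.0923% negative. An unadjusted p under 0.05 (edgeR) was reached by 4 members, for which no share over all genes is given. DESeq2 called 1, ITGA5, and 2.28% of all genes tested. ITGA5 had the smallest p, with a difference of 0.95 ± 0.20 on the log2 scale (adjusted p = 0.0823, edgeR). Its response was 0.99 in KO and 0.04 in WT cells. With the replicate block, ITGA5 (adjusted p = 0.014, edgeR) and ZYX (0.0333) were called, over ranges of 0.000829 to 1.0 and 0.0333 to 1.0 among all alternatives. Without WT A1331852 replicate 3, 5 members were called, where 2.96% of all genes tested were: ITGA2, ITGA5, ITGA6 and ITGB8 with differences of 2.45, 1.13, 0.75 and -1.24, and ITGB6 with -1.21. With all libraries kept, but no low-count filter, ITGA2, ITGA5, ITGB4, ITGB8 and ZYX were called, where 1.9% of all genes tested were. In WT A1331852 replicate 3 ITGB6 had 2.45 CPM, against 20.2 and 12.9 CPM in WT replicates 1 and 2.

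**Figure D4:**
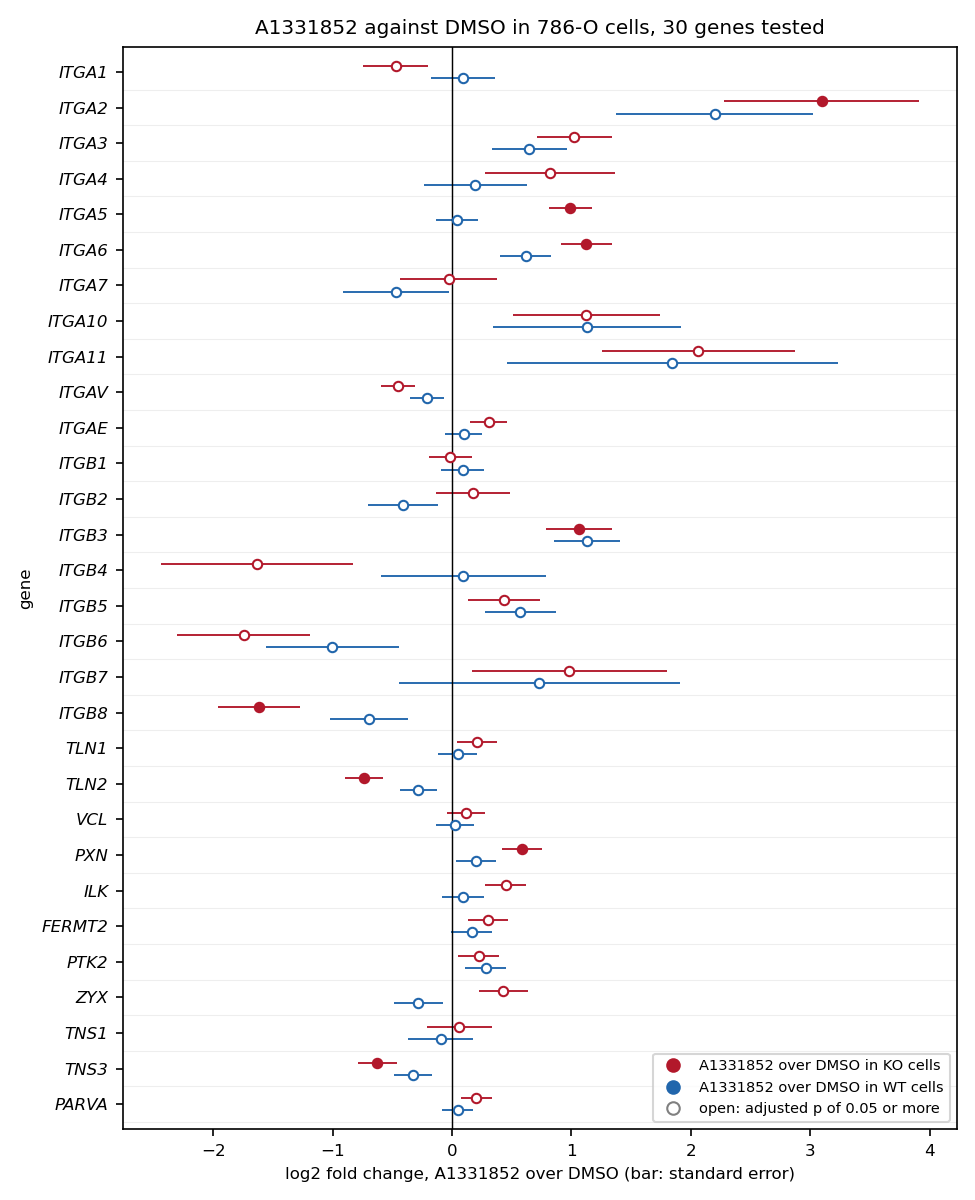
Log2 fold change of A1331852 over DMSO with its standard error, for the 30 members tested, in KO (red) and WT (blue) 786-O cells. Filled points have an adjusted p under 0.05, which 8 members reach in KO and 0 in WT cells, and ITGB3 stands at 1.07 in KO and 1.13 in WT cells.

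In A498, 28 of the 33 members passed the filter. Of these, 8 (28.6%) were called between libraries labelled deficient and add-back, 6 higher and 2 lower in deficient libraries (edgeR). This lay near the share over all 15424 genes tested, of which 30.2% were called, 15.1% in each direction. DESeq2 called 7 members, and 23.2% of all genes tested. The median log2 fold change was 0.07 over the members tested and -0.01 over all genes. ITGB3 (chromosome 17, 47253827 to 47313743) had 217 and 168 CPM in deficient, against 58.3 and 62.7 CPM in add-back libraries. Its log2 fold change was 1.65 ± 0.14, a fold of 3.14 (adjusted p = 1.37e-06, edgeR). ITGA3 (chromosome 17, 50055968 to 50090481) averaged 1118 ± 3.77 CPM in deficient and 520.1 ± 31.3 CPM in add-back libraries (SD, n = 2 each), a log2 fold change of 1.08 ± 0.11 (adjusted p = 5.41e-06, edgeR). Of the collagen-binding subunits, ITGA2 and ITGA1 were called higher as well. ITGA11 was not called, at 1.59 ± 0.06 CPM in deficient and 2.36 ± 0.10 CPM in add-back libraries (adjusted p = 0.159, edgeR). ITGA2 had 19.0 and 24.0 CPM in deficient, against 12.8 and 11.3 CPM in add-back libraries (0.81 ± 0.17, adjusted p = 0.00272, edgeR), and ITGA1 had 43.0 and 54.5 CPM in deficient, against 33.3 and 32.2 CPM in add-back libraries (0.55 ± 0.15, adjusted p = 0.0127, edgeR).

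Tensin 1 (TNS1) had 38.4 and 46.0 CPM in deficient, against 18.1 and 27.4 CPM in add-back libraries (log2 fold change 0.87 ± 0.18, adjusted p = 0.00249, edgeR). ITGB1 rose by 0.40 ± 0.11 (adjusted p = 0.0135, edgeR). ITGB6, an epithelial partner of ITGAV that activates TGF-beta, had 38.5 and 36.7 CPM in deficient, against 67.2 and 59.3 CPM in add-back libraries (log2 fold change -0.77 ± 0.14, adjusted p = 0.000857, edgeR). PARVA had a log2 fold change of -0.48 ± 0.17 (adjusted p = 0.0411, edgeR), and was called neither by DESeq2 nor without the low-count filter. None of these 8 genes overlapped between the groups, but they were picked by their calls, so this adds no separate support. The calls of ITGA2, ITGA3, ITGB3 and ITGB6 held with each library left out, where the lone library of a group is assumed to vary like the other group. Without add-back replicate 1, ITGA1, ITGB1, TNS1 and PARVA lost their calls. Without add-back replicate 2, ITGA1, ITGB1 and PARVA lost theirs, and PARVA also without deficient replicate 1. With 1 library left out, log2 fold changes ran from 0.38 to 0.72 for ITGA1 and 0.31 to 0.50 for ITGB1. They ran from 0.61 to 1.2 for TNS1 and from -0.70 to -0.28 for PARVA. A smaller share of all genes tested was called without either add-back library, and a larger share without either deficient library. The number of members called moved the same way.

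ITGA4 stood at 60.2 and 73.8 CPM in deficient, against 77.0 and 72.2 CPM in add-back libraries, levels well above those of 786-O in all 4 libraries. Its log2 fold change was -0.18 ± 0.14 (adjusted p = 0.37, edgeR, and 0.03 to 0.86 over the alternatives). ITGA5, ITGA6 and ITGB2 were not called either, with log2 fold changes of -0.30 ± 0.12, -0.15 ± 0.14 and -0.35 ± 0.17. ITGA4, ITGA5 and ITGA6 were called lower without deficient replicate 2 (adjusted p = 0.03, 0.00693 and 0.0433, edgeR, with ranges up to 0.86, 0.575 and 0.999), and ITGB2 without deficient replicate 1 (0.0454, up to 0.64). VCL and ITGB8 were called higher without deficient replicate 1 (0.000395 and 0.0492), and ITGA7 was called lower without deficient replicate 1 or add-back replicate 2 (down to 0.00382, and up to 0.677 with other libraries left out). The 9 leukocyte markers summed to 2.32 CPM at most in A498, and their part in the level of ITGA4 was not tested. The 7 muscle and platelet markers summed to 2.84 to 3.13 CPM in deficient and 14.2 to 15.4 CPM in add-back libraries, mostly from DES (13.7 CPM in add-back), beside an ITGA7 of 1.87 and 0.784 CPM in deficient, against 3.37 and 1.76 CPM in add-back libraries. Their part in that result was not tested.

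The difference between lines, the KO effect of 786-O in DMSO minus the deficient effect of A498, was tested over all 16 libraries. Of the 33 members, 30 passed the filter there and 10 were called, 4 positive and 6 negative, where 13.2% of 17868 genes tested were called, 6.12% positive and 7.1% negative (edgeR). DESeq2 called 10. With the replicate block 15 were called, where 22.2% of all genes tested were, which added ITGB6 (1.501 ± 0.37, adjusted p = 0.00852, edgeR), TNS1 (-1.03 ± 0.23, 0.00427), TLN1 (-0.64 ± 0.17, 0.0116), ILK (0.46 ± 0.15, 0.0425) and ZYX (-0.47 ± 0.16, 0.0499). In A498, ITGA11 had 1.55 and 1.63 CPM in deficient, against 2.43 and 2.29 CPM in add-back libraries, and ITGB2 had 11.7 and 10.4 CPM in deficient, against 12.7 and 15.2 CPM in add-back libraries. In 786-O in DMSO, ITGA3 had 1831, 1760 and 946 CPM in KO, against 2112, 2249 and 1078 CPM in WT libraries, and ITGB3 had 88.3, 89.9 and 71.3 CPM in KO, against 79.0, 75.1 and 62.6 CPM in WT libraries, with overlap between genotypes for both. ITGA4 (-3.33 ± 0.44, adjusted p = 0.000149, edgeR) and ITGA11 (4.18 ± 0.92, adjusted p = 0.00729, edgeR) held with each of the 10 libraries left out. ITGB2 also differed negatively (-1.43 ± 0.34), with log2 fold changes of -1.76 in 786-O and -0.35 in A498. ITGA7 differed positively (2.38 ± 0.60), with 1.44 in 786-O and -0.96 in A498. ITGB3 and ITGA3 differed negatively (-1.47 ± 0.32 and -1.35 ± 0.36). Both were called higher in A498 deficient libraries, while their 786-O values in DMSO (0.21 and -0.24) were not called. The calls of ITGB2 and ITGB3 were lost without add-back replicate 1 (adjusted p = 0.0759 and 0.0528, edgeR), and that of ITGA7 without WT DMSO replicate 1, deficient replicate 2 or add-back replicate 1 (up to 0.128). Leaving out any of 7 libraries ended the call of ITGA3 (up to 0.104; it held without KO DMSO replicate 1 and without WT DMSO replicate 1 or 2). ITGB1 (-0.81 ± 0.22) and VCL (-0.82 ± 0.20) differed negatively, and ITGA5 (0.68 ± 0.21) and ITGA6 (0.82 ± 0.26) positively, the last pair with an adjusted p of 0.0475 each (edgeR) that did not hold on leaving out any 1 of the 10 libraries. ITGB1 lost its call without any of 8 libraries (up to 0.122; it held without WT DMSO replicate 2 or deficient replicate 1), and VCL without KO DMSO replicate 2, deficient replicate 2 or either add-back library (up to 0.0805). The number called was 5 without KO DMSO replicate 2, where 8.89% of all genes tested were called. It was 6 without KO DMSO replicate 3 or WT DMSO replicate 1 or 3 (8.69% to 10.0% of all genes tested). The number also fell without either add-back library or deficient replicate 2, where 1 group holds a single library. The share of all genes tested that were called fell there too. The line and batch 3 cannot be told apart.

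**Figure D5:**
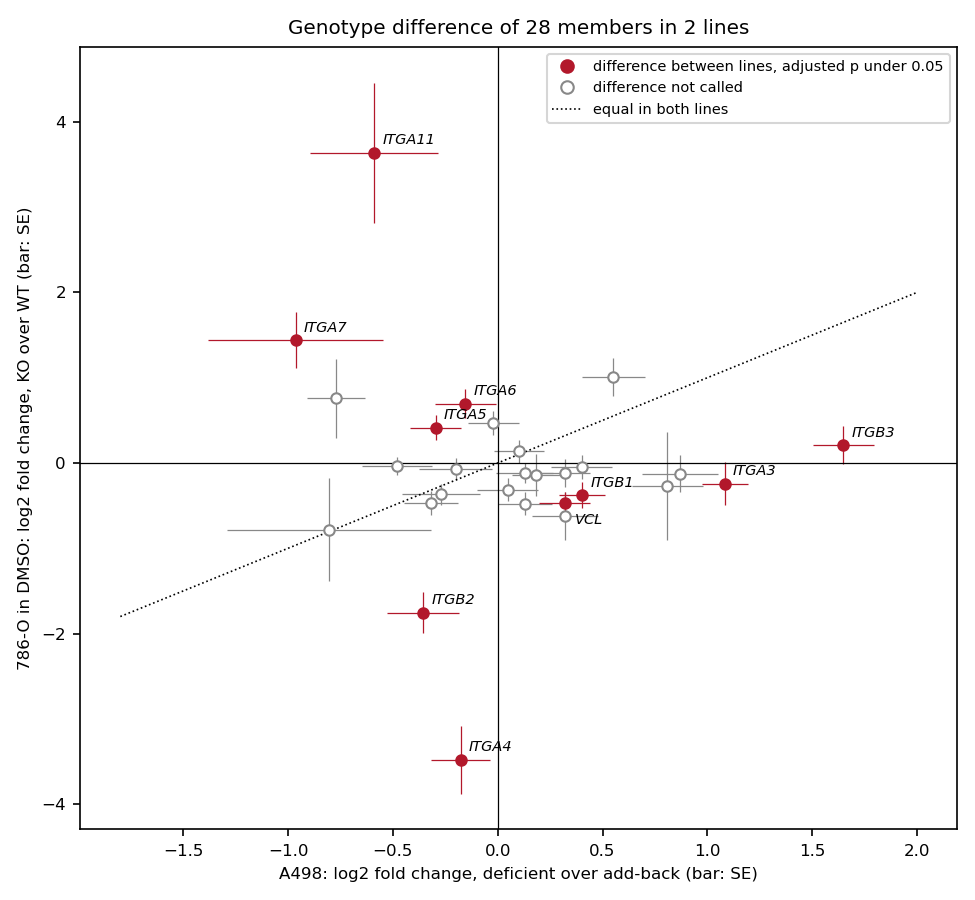
Log2 fold change of KO over WT in 786-O in DMSO (vertical) against that of deficient over add-back in A498 (horizontal), with standard errors, for the 28 members tested in both. Red points have an adjusted p under 0.05 for the difference between lines, among them ITGA4 (-3.48 and -0.18) and ITGB3 (0.21 and 1.65).

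On chromosome 12, 3 integrin genes lie between 53191323 and 55716404 (ITGB7, ITGA5 and ITGA7), and under A1331852 all 3 were higher in KO cells. This interval was chosen after the values were seen, and ITGB7 passed the filter through the KO libraries where it is high. Of 33 other genes tested in that interval, 6 were called higher and 1 lower under A1331852, 1 higher and 2 lower in DMSO, and 0 higher and 4 lower in A498. Over all genes tested, 13.2% were higher and 15.0% lower under A1331852, 8.29% and 10.2% in DMSO, and 15.1% each way in A498. The median log2 fold change of these 33 genes was 0.09, 0.03 and -0.10 in the 3 comparisons.

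A further 6 lists held 107 other genes of adhesion, namely other integrins and kindlin-3, adaptors, kinases and signalling, actin linkers, trafficking and tetraspanins, and ligands. Of these, 91 passed the filter in 786-O and 98 in A498. Between KO and WT cells under A1331852, 18 of the 91 tested were called higher and 17 lower, against 13.2% and 15.0% of all genes tested. In DMSO 10 of the 91 were higher and 15 lower, against 8.29% and 10.2% of all genes. In A498, 22 of the 98 tested were higher and 15 lower in deficient libraries, against 15.1% of all genes in each direction. ITGAX, an alpha partner of ITGB2, averaged 16.7 ± 4.08 CPM in KO and 3.43 ± 1.69 CPM in WT A1331852 libraries (log2 fold change 2.28 ± 0.33, adjusted p = 0.000481, edgeR), and thus rose where ITGB2 fell. In A498 it averaged 6.68 ± 0.399 CPM in deficient and 19.3 ± 1.02 CPM in add-back libraries (-1.55 ± 0.17, adjusted p = 1.13e-05, edgeR).

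Of 24 integrin ligands, 19 were tested in 786-O, where 1 rose and 3 fell in KO cells under A1331852, and 22 in A498, where 6 rose and 4 fell in deficient libraries. The one that rose was tenascin C (TNC), with 46.6 ± 5.76 CPM in KO and 11.1 ± 3.19 CPM in WT A1331852 libraries (log2 fold change 2.07 ± 0.22, adjusted p = 5.35e-05, edgeR). TNC was not called in DMSO (0.62 ± 0.21, adjusted p = 0.0586, edgeR) and fell in A498 deficient libraries (-0.42 ± 0.12, adjusted p = 0.0201, edgeR). Osteopontin (SPP1), a ligand of ITGB3 with ITGAV, averaged 2075 ± 242 CPM in deficient and 709 ± 20.3 CPM in add-back A498 libraries (1.53 ± 0.12, adjusted p = 3.65e-07, edgeR), and VCAM1, the ligand of ITGA4, 83.02 ± 8.35 CPM in deficient and 35.6 ± 0.0389 CPM in add-back libraries (1.20 ± 0.14, adjusted p = 1.88e-05, edgeR). Of 19 kinases and signalling proteins, 18 were tested in 786-O, and 4 rose and 6 fell in KO cells under A1331852. RAP1A, a small GTPase that acts upstream of talin, fell there by 0.89 ± 0.11 (log2) and by 0.75 ± 0.11 in DMSO (adjusted p = 0.000134 and 0.000596, edgeR), and by 0.52 ± 0.14 in A498 deficient libraries (adjusted p = 0.0112, edgeR).

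Of 20 actin linkers, all tested, 3 rose and 4 fell in KO cells under A1331852, and 7 rose and 1 fell in A498 deficient libraries. LIMA1, which bundles actin filaments, averaged 164 ± 5.19 CPM in KO and 58.3 ± 10.7 CPM in WT A1331852 libraries (log2 fold change 1.49 ± 0.15, adjusted p = 4.45e-05, edgeR). PDLIM1 fell by 0.53 ± 0.11 in KO cells under A1331852 (adjusted p = 0.0039, edgeR), but rose by 1.65 ± 0.12 in A498 deficient libraries (adjusted p = 2.01e-07, edgeR), and the difference between lines in DMSO was -2.26 ± 0.17 (adjusted p = 6.04e-07, edgeR). Of 23 adaptors, 19 were tested in 786-O, and 4 rose and 4 fell under A1331852, among them CRKL (0.68 ± 0.11) and TGFB1I1, the paxillin relative Hic-5 (-0.74 ± 0.14). Of 15 trafficking and tetraspanin genes, 13 were tested there, and 5 rose and 0 fell at an adjusted p under 0.05, among them CD81 (0.67 ± 0.12) and RAB21 (0.57 ± 0.13), a GTPase of integrin traffic. Their adjusted p lay at 0.000935, 0.00288, 0.00205 and 0.00656 (edgeR). In A498 deficient libraries CD81 fell by 0.44 ± 0.14 (adjusted p = 0.0268, edgeR), while CRKL, TGFB1I1 and RAB21 were not called.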

How the data were processed

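Polyadenylated RNA was sequenced as 150-base pairs on 16 libraries, 3 per group in 786-O and 2 per group in A498. The authors deposited a file of raw counts for each library, made with featureCounts 1.5.0-p3, which assigned fragments to exons by gene name, reverse-stranded (setting 2), against GENCODE release 41 on GRCh38, per the file headers. STAR, MultiQC 1.7 and DESeq2 are named in the submitters' processing notes. The recorded command does not switch on counting of fragments that overlap 2 genes on a strand.

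From the counts, TMM-scaled CPM and FPKM were computed over 16 libraries, and differences were tested with edgeR 4.0.16 in R 4.3.3: filterByExpr with a minimum of 10 counts, quasi-likelihood tests, Benjamini-Hochberg adjustment over all genes tested and a call at an adjusted p under 0.05. One fit took the 12 libraries of 786-O with a batch term, another the 4 of A498, and a last one all 16 for the difference between lines. SE is the absolute log2 fold change over the root of F. Alternatives were upper-quartile factors, no filter, a mean of at least 50 counts, no batch term, the replicate number as a block, single batches, each library left out, and DESeq2 1.42.0; the 6 A1331852 libraries alone were added after the data were seen. The labels do not say whether replicates came from separate cultures, so p-values measure the spread between libraries, which may be technical. DMSO replicates 1 and 2 differed least, with a median chi-square per gene between their counts of 0.949 in KO and 1.02 in WT cells. Pairs with DMSO replicate 3, of another batch, had 11.2 to 15.4, A1331852 pairs 3.23 to 10.8, and A498 pairs 1.43 and 2.94. The spread within batch 2 may thus be smaller than that between cultures.

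Replicate numbers were checked as pairs. Residuals of same-numbered KO and WT libraries had correlations of 0.569 to 0.765 for DMSO libraries and of 0.271 to 0.506 for A1331852 libraries, all above 0.1, so the block is given beside KO against WT. Replicates 1 and 2 crossed gave 0.566 and 0.601 in DMSO, where both are in batch 2, and 0.13 and 0.222 in A1331852. Between A1331852 and DMSO they were -0.0465 to 0.0542. The members and lists were chosen with earlier results of these data known. Named with values in every library were, per comparison, up to 6 called members with the largest log2 fold change among those averaging 1 CPM or more in their higher group, plus members called in 3 of 4 comparisons of 786-O; of other lists, up to 4 called genes with the smallest adjusted p. Promoters came from RefSeq (GRCh38.p14). The counting interval covers counting error only.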

Additional observations from a re-analysis of the deposited data

Results flagged for a closer look

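The effect of genotype differed between the 2 lines for 10 members, by a test of the difference itself (786-O KO effect in DMSO minus A498 deficient effect, edgeR with all 16 libraries, on the log2 scale). Among alpha subunits the difference was 4.18 for ITGA11, 2.38 for ITGA7, 0.82 for ITGA6 and 0.68 for ITGA5, where the 786-O value was the more positive, and -3.33 for ITGA4 and -1.35 for ITGA3. Among beta subunits it was -1.47 for ITGB3, -1.43 for ITGB2 and -0.81 for ITGB1. Among plaque genes it was -0.82 for VCL. With the replicate block, ITGB6, TNS1, TLN1, ILK and ZYX were called as well. The line cannot be told apart from its batch, the DMSO vehicle or the kind of genetic change (knockout or add-back).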

How the results depend on the processing

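No called log2 fold change of a member turned its sign under any alternative run. The number of members called moved by over 1.5 times in these cases. For KO against WT under A1331852 (19 called, and 28.2% of all genes tested), the number was 11 (15.0%) in the 6 A1331852 libraries alone. With 1 library left out it was 12 to 20 (20.3% to 32.5%). In DMSO (12 called, and 18.5% of all genes), it was 5 (9.16%) without the batch term and 24 (55.7%) in batch 2 alone. With 1 library left out it was 2 to 7 (9.63% to 10.6%). For A1331852 against DMSO in KO cells (8 called), no call held in batch 1 alone, with its single KO DMSO library. The number was 5 without the batch term, 14 with the replicate block and 3 to 8 with 1 library left out. In WT cells (0 called, and 0.141% of all genes), it was 5 (2.66%) with no low-count filter and 8 (17.4%) with the replicate block. It was 1 (2.89%) with DESeq2 and 0 to 1 (0% to 0.38%) with 1 library left out. For the interaction (0 called, and 0.295% of all genes), it was 5 (1.9%) with no low-count filter and 2 (2.05%) with the replicate block. It was 1 (2.28%) with DESeq2 and 0 to 5 (0% to 2.96%) with 1 library left out. In A498 (8 called), it was 14 with the replicate block. Residuals of same-numbered libraries correlated at 0.152 there. With 2 libraries per group this is 1 value, since residuals mirror each other, and it cannot show a pairing. The number called in A498 also moved with 1 library left out, where 1 group holds a single library. For the difference between lines (10 called), it was 4 without the batch term. It was also lower with any 1 library left out, as was the share of all genes tested that were called. For A1331852 against DMSO in KO cells, the share of all genes tested that were called was 13.5%, against 9.16% without the batch term. It was 26.5% with the replicate block and 4.68% to 15.5% with 1 library left out. In A498 the share went from 30.2% to 37.7% with the replicate block. For the difference between lines it went from 13.2% to 5.97% without the batch term. The cause of these moves was not tested. The replicate numbers did not pair A1331852 with DMSO libraries, so the block values there rest on a shared number only. Members under about 1 CPM (ITGA10, ITGA11, ITGB7), and the KO level of ITGA4 in 786-O, rest on few counts.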
